A study of Mus musculus with 6 samples.

Results

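Transforming growth factor beta (TGF-beta) is a secreted factor with 3 ligand genes, *Tgfb1*, *Tgfb2* and *Tgfb3*. These were examined here with the receptor genes *Tgfbr1*, *Tgfbr2* and *Tgfbr3* and the genes *Smad2*, *Smad3*, *Smad6* and *Smad7* of the intracellular arm, 10 genes of the 19937 named by the arrays. Each of the 10 has 1 probe set (a group of probes summarised to 1 value) that the platform table pairs with its symbol alone. The ligands, receptors and SMADs were chosen because *Tgfb3* had a low value after tamoxifen on these same arrays. The difference of *Tgfb3* is therefore a description and carries no test. The other members were taken for their place in the pathway, though with earlier results of these data known.

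The ligands are made as inactive complexes and are set free by integrins, proteases and thrombospondin. An active ligand joins the type II receptor TGFBR2 to the type I receptor TGFBR1, and TGFBR3, also called betaglycan, presents the ligand to them. TGFBR1 then phosphorylates SMAD2 and SMAD3, which enter the nucleus with SMAD4 and act on target genes, and the inhibitory SMAD6 and SMAD7 dampen the signal. In dendritic cells TGF-beta is best known as a factor that restrains activation, and in fibroblasts it is a main inducer of matrix and contractile genes.

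The cells were plasmacytoid dendritic cells (pDCs), which make type I interferon, grown from bone marrow of C57BL/6 mice and sorted as B220+ CD11c+ cells. All 3 mice were *Gfi1* f/f, *Gfi1b* f/f and ERCre, that is, with both alleles of the *Gfi1* and *Gfi1b* repressor genes floxed and with a tamoxifen-activated Cre that the study's text places in the *Rosa26* locus. The sources used here do not give the age of the mice. Total bone marrow was cultured with Flt-3L, a cytokine for dendritic cell growth, at 25 ng/ml, and the culture of each mouse was split into an untreated part (WT) and a part given 1 µM tamoxifen (KO). There were thus 3 WT and 3 KO arrays. *Xist*, expressed from the inactive X chromosome, had 2449, 1893 and 23.9 in WT pDCs of mice 1, 2 and 3. The Y-linked *Eif2s3y* had 8.03, 7.12 and 269. This is the pattern of females in mice 1 and 2 and a male in mouse 3. WT and KO differ in both the drug and the deletion, and no array of tamoxifen-treated cells without floxed alleles was analysed here, so the effects of the drug and of the deletion cannot be told apart. The study's genotyping PCR found the deletion to be inefficient. The probe sets of *Gfi1* and *Gfi1b* summarise whole transcripts and check nothing about the deleted exons. Their log2 differences, KO minus WT, were 0.37 (SE 0.12) and 0.55 (SE 0.16), each with an adjusted p of 0.69 from limma. The intensity of *Gfi1* was only 43.3 to 67.1, near the dim level of 62.3 that is set out below.

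Both arrays of mouse 1 stood apart from the other 4, along a first principal component that held 70.8% of the variance. Of the 17 pDC markers measured, the summed intensity was 56216 in WT and 53637 in KO pDCs of mouse 1 and between 24410 and 38475 in those of mice 2 and 3, so the labelled cell type was present in every array. The summed intensity of 19 stromal cell markers was 1124 and 1097 in the WT and KO pDCs of mouse 1. In mouse 2 it was 11387 and 4455, and in mouse 3 it was 11492 and 4497. The 14 neutrophil markers summed to 1615 and 834 in mouse 1, to 9914 and 3238 in mouse 2 and to 12606 and 5687 in mouse 3. The 15 macrophage markers summed to 7573 and 6436 in mouse 1, to 34172 and 27309 in mouse 2 and to 37815 and 30472 in mouse 3. In the WT arrays of mice 2 and 3 this was above the pDC marker sums of 29609 and 24410. Sums over lists of different genes do not give cell numbers. In arrays of sorted bulk cells, fewer cells of a type and less RNA per cell cannot be told apart.

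Because GFI1 and GFI1B bind DNA at sites with the core AATC, the start sites of the members were searched for these letters. RefSeq promoter windows (GRCm38.p6), from 250 bases before to 50 after a start site, were searched for 6 of the 10 members, with 7 windows. No window of *Tgfb3*, *Tgfbr3*, *Smad2* or *Smad7* was in the search, so nothing is said about the promoters of these genes. Both strands were read, so GATT counts as AATC. The core was in a window of 4 of these 6 genes, *Tgfb2*, *Tgfbr1*, *Tgfbr2* and *Smad6*, and in 73.1% of all 32851 windows. The 250 bases before the start are printed for the ligands searched, *Tgfb1* and *Tgfb2*. The window of *Tgfb1* holds no AATC, and that of *Tgfb2* holds 2, both in capitals. *Tgfb1* lies on the plus strand at chr7:25686752-25687001 and *Tgfb2* on the minus strand at chr1:186705990-186706239, and both are written 5′ to 3′ along the gene.
Tgfb1: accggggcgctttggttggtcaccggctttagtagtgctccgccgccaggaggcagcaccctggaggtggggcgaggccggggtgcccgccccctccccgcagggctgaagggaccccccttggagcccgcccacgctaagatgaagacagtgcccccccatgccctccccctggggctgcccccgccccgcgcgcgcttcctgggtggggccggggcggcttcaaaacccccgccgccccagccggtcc
Tgfb2: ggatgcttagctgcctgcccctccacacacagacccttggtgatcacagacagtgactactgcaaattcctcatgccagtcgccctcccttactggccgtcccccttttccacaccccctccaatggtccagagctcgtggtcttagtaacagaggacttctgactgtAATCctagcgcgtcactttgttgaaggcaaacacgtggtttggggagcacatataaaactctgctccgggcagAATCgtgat
The palindrome GTCTAGAC, a SMAD-binding element, was searched for as well. It was in 0.213% of all 32851 windows and, of the 6 members searched, only in the window of *Smad6*. There it lies across the start site on the minus strand at chr9:64022046-64022073. The element is in capitals.
Smad6: ccgccaaagtGTCTAGACtggcatatga
A match of letters is a description and not a binding site, and a window without one says only that the letters are not there.

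None of the 9 members other than *Tgfb3* differed between WT and KO pDCs beyond the spread of the arrays (limma, adjusted p from 0.72 to 0.99). Their log2 differences, KO minus WT, ran from -0.34 for *Tgfb2* to 0.17 for *Smad6*, with a median of -0.10, beside 0.03 for all 21640 probe sets tested. *Tgfb3* was at -1.55. At an adjusted p under 0.05 none of the 10 members was called, and neither was any other probe set (0%), with or without the mouse as a block. The smallest adjusted p over all probe sets was 0.692, and 0.0708 with the block. At an unadjusted p under 0.05, 1 member was below the threshold in both fits, the *Tgfb3* that was chosen for it, beside 7.05% of all probe sets, or 13.5% with the block. The WT and KO ranges overlapped for all 10 members, whereas 14.8% of all probe sets had no overlap, 4.65% with all KO arrays below all WT arrays and 10.2% with all KO arrays above. Of the 9 members other than *Tgfb3*, 2 (22.2%), *Tgfb1* and *Tgfb2*, were lower in the KO culture of all 3 mice. None of the 9 was higher in all 3. The shares of all probe sets were 17.4% lower and 21.3% higher. *Tgfb3*, chosen for its drop, was lower in all 3 mice as well.

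**Figure D1:**
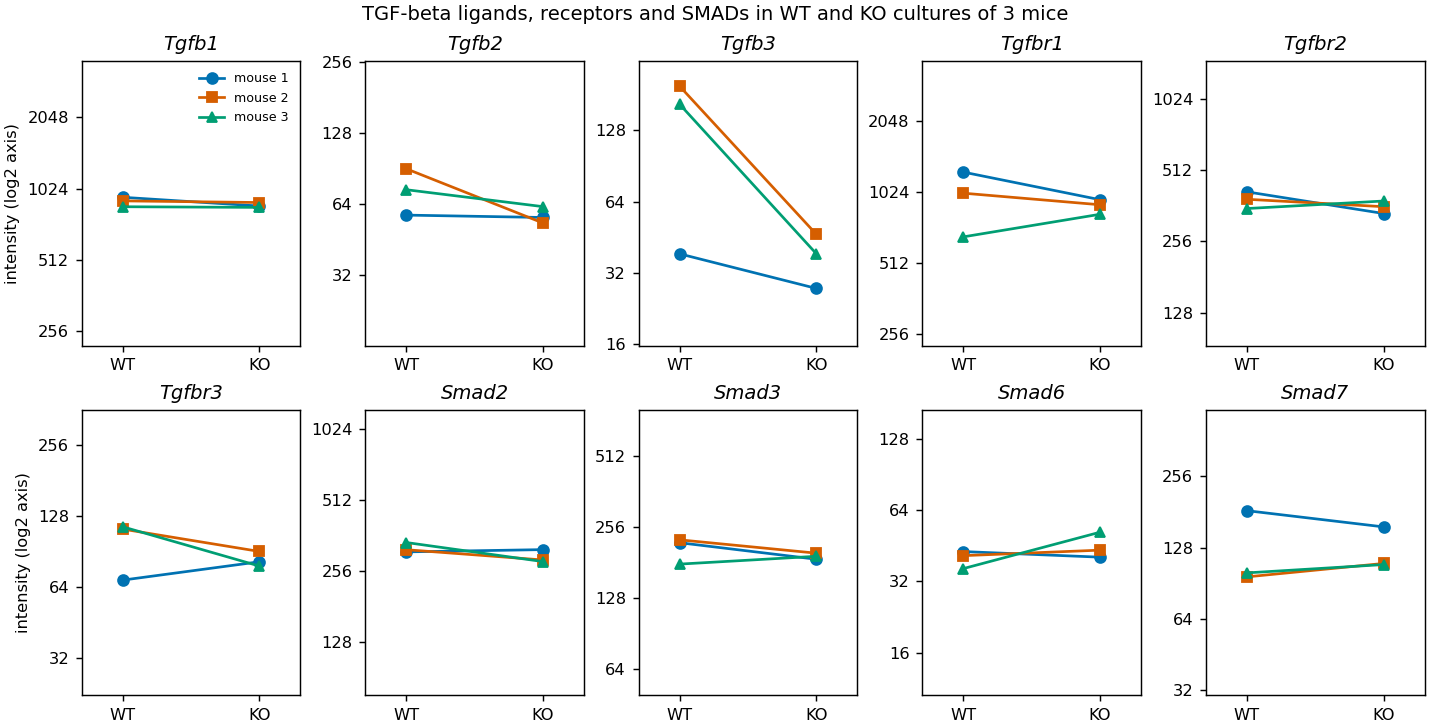
Intensity of the 10 members (vertical axis, log2 scale, all panels spanning the same fold) in the WT and KO arrays of mice 1, 2 and 3, with a line joining the arrays of 1 mouse. *Tgfb3* is at 197 and 165 in the WT arrays of mice 2 and 3 and between 27.5 and 46.5 in the other 4, while the lines of *Tgfb1* are nearly flat.

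*Tgfb3* had an intensity of 38.4, 197 and 165 in WT pDCs of mice 1, 2 and 3. In KO pDCs it was 27.5, 46.5 and 38.5. The WT arrays of mice 2 and 3 were high, and the WT array of mouse 1 lay within the range of the KO arrays. The mean in WT pDCs was 133 ± 83.7 and that in KO pDCs 37.5 ± 9.56 (SD, n = 3 mice). Within mice 1, 2 and 3 the log2 difference was -0.49, -2.08 and -2.10, so the KO culture was lower in all 3 mice, and least so in mouse 1. The mean was -1.55 (SE 0.62). It went to -2.30 without the WT array of mouse 1 and to -1.12 without that of mouse 2. The WT cultures of mice 2 and 3 were above that of mouse 1 by 2.35 and 2.10 on the log2 scale, a gap between untreated mice as large as that between KO and WT within mice 2 and 3. The WT culture of mouse 1 was at least 2-fold below both others for 4.47% of all probe sets.

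All KO values and the WT value of mouse 1 were below 62.3, the 95th percentile of 1208 probe sets of olfactory and vomeronasal receptor genes, which blood cells are not known to use. *Tgfb3* was thus above this dim level only in the WT arrays of mice 2 and 3. These are also the WT arrays with the high stromal, neutrophil and macrophage marker sums. Their part in the result was not tested.

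*Tgfb2*, the ligand best known from developing heart, eye and skeleton, had an intensity of 57.5, 90.3 and 73.7 in WT pDCs of mice 1, 2 and 3. In KO pDCs it was 56.2, 53.2 and 62.5. The highest values were again those of the WT arrays of mice 2 and 3, while the WT value of mouse 1 lay among the KO values, 3 arrays being below the dim level of 62.3. Its log2 difference of -0.34 (SE 0.18, 95% interval -0.77 to 0.08) had an adjusted p of 0.72 from limma, and 0.39 with the mouse as a block. Within mice 1, 2 and 3 it was -0.03, -0.76 and -0.24.

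*Tgfb1*, the ligand that most leukocytes make, had an intensity of 940, 908 and 857 in WT and 863, 893 and 852 in KO pDCs of mice 1, 2 and 3. The 6 arrays lay close together, with means of 902 ± 41.7 for WT and 870 ± 21.4 for KO (SD, n = 3 mice). The log2 difference was -0.05 (SE 0.09, adjusted p = 0.90 from limma), with a 95% interval from -0.26 to 0.16. Within mice it was -0.12, -0.02 and -0.01, and mouse 1 did not stand apart for this gene.

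**Figure D2:**
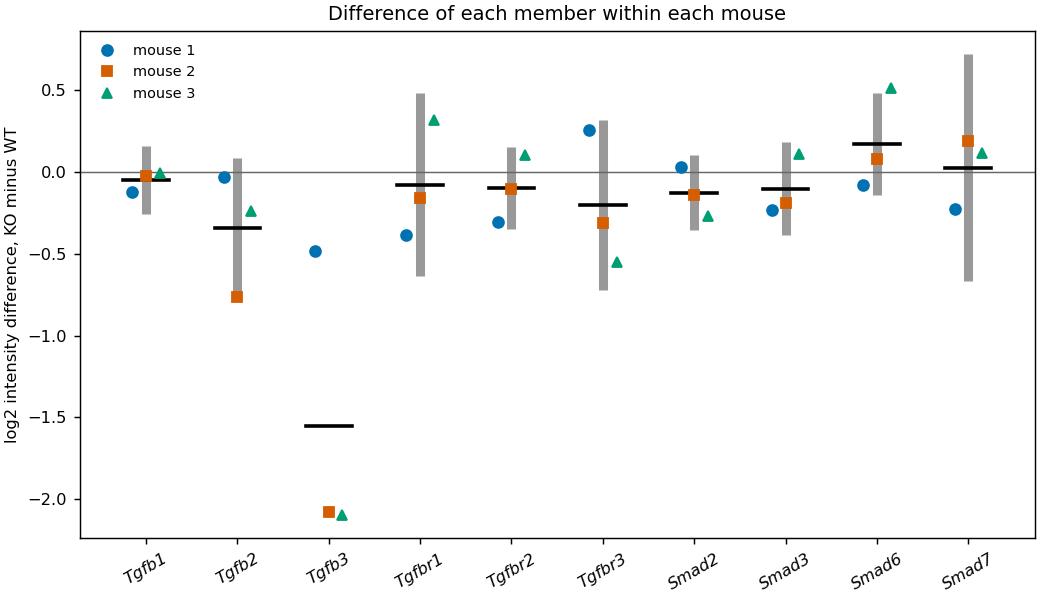
Log2 difference in intensity, KO minus WT (vertical axis), of each member within mice 1, 2 and 3 (points), with the mean (black line) and, for all but *Tgfb3*, the 95% interval of the limma fit (grey bar). All intervals drawn span 0, from -0.77 to 0.08 for *Tgfb2* and from -0.67 to 0.72 for *Smad7*.

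The signalling receptors were above the dim level in every array. *Tgfbr1*, the kinase that phosphorylates the SMADs, had 1242, 1012 and 661 in WT pDCs of mice 1, 2 and 3 and 950, 904 and 824 in KO pDCs. The spread between the WT cultures was wider than any difference between WT and KO within a mouse, which was -0.39, -0.16 and 0.32 on the log2 scale. The mean difference was -0.08 (SE 0.23, 95% interval -0.64 to 0.48), and it turned to 0.12 without the WT array of mouse 1. *Tgfbr2*, which binds the ligand first, had 415, 386 and 352 in WT and 336, 359 and 379 in KO pDCs, which gave a log2 difference of -0.10 (SE 0.10, 95% interval -0.35 to 0.15). Both receptors were lower in the KO cultures of mice 1 and 2 and higher in that of mouse 3.

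*Tgfbr3*, the betaglycan gene, had 68.4, 112 and 115 in WT pDCs and 81.8, 90.4 and 78.4 in KO pDCs of mice 1, 2 and 3. Its WT arrays of mice 2 and 3 were the highest of the 6 and its WT array of mouse 1 the lowest. The log2 difference was -0.20 (SE 0.21, adjusted p = 0.84 from limma, 95% interval -0.72 to 0.32), made of 0.26, -0.31 and -0.55 within the mice. The coreceptor was thus higher in the KO culture of mouse 1 and lower in those of mice 2 and 3.

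Among the SMADs that carry the signal, *Smad2* had 309, 316 and 339 in WT and 316, 286 and 281 in KO pDCs. Its log2 difference was -0.13 (SE 0.09, 95% interval -0.36 to 0.10). *Smad3* had 220, 226 and 178 in WT and 187, 198 and 192 in KO pDCs, which gave a log2 difference of -0.10 (SE 0.12, 95% interval -0.39 to 0.18). Neither gene was lower in all mice, as *Smad2* was 0.03 higher in mouse 1 and *Smad3* 0.11 higher in mouse 3 on the log2 scale.

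The inhibitory SMADs are themselves induced by signals of the family. *Smad7*, which blocks TGFBR1, had 183, 96.2 and 100 in WT and 157, 110 and 108 in KO pDCs of mice 1, 2 and 3. Here the arrays of mouse 1 were the highest, in WT and in KO, where those of *Tgfb3* were the lowest. The log2 difference was 0.03 (SE 0.29, 95% interval -0.67 to 0.72), with -0.23, 0.19 and 0.12 within the mice, and it turned to -0.03 with each array centred on its median. *Smad6*, which acts mainly on signals of bone morphogenetic proteins (BMPs), had 42.8, 41.1 and 36.3 in WT and 40.5, 43.4 and 51.7 in KO pDCs. All 6 values were below the dim level of 62.3. Its log2 difference was 0.17 (SE 0.13, 95% interval -0.14 to 0.48).

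Across the 6 arrays the log2 values of *Tgfb2* and *Tgfbr3* followed those of *Tgfb3* (Pearson's r of 0.90 and 0.89), and those of *Smad7* ran the other way (-0.71). For *Tgfb1* r was 0.03. These correlations describe 6 arrays that share mice and culture conditions, with the WT arrays of mice 2 and 3 at one end of the *Tgfb3* values. Without both arrays of mouse 1, *Tgfb2* and *Tgfbr3* were the members, besides the selected *Tgfb3*, under an unadjusted p of 0.05, beside 17.6% of all probe sets. None of the 9 members other than *Tgfb3* passed the adjusted p in that fit or in the same fit with the block, beside 0.499% and 2.37% of all probe sets.

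The genes with the pattern most like that of *Tgfb3* were sought among 2279 genes whose log2 values spanned at least 1. They were *Mmp23*, a metalloproteinase (r = 0.989), *Aldh1l2*, a mitochondrial folate enzyme, *Nes*, the intermediate filament nestin, *Rcn1*, a calcium-binding protein of the secretory pathway, *Fermt2*, an integrin adaptor, *P4ha3*, a subunit of collagen prolyl hydroxylase, *Cnn3*, an actin-binding calponin, and *Grb10*, a growth factor receptor adaptor (r = 0.978). All 8 had their highest values in the WT arrays of mice 2 and 3. *Fermt2*, for instance, had 64.0, 203 and 217 in WT and 50.1, 84.7 and 82.4 in KO pDCs. An r above 0.9 was reached by 176 genes. The 100 most similar held 6 of the 19 stromal, 5 of the 14 neutrophil, 1 of the 15 macrophage and 0 of the 17 pDC markers. How many markers of each list are among the 2279 genes was not counted, so these numbers show no contrast between the lists. Of the 100, 39 are in the study's table of changed genes, which was made from these arrays. Over all 21640 probe sets tested, 114 are in it.

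The genes most like *Tgfb2* were *Ifi208*, an interferon-inducible gene (r = 0.984), *Prss23*, a serine protease, *Foxc1*, a transcription factor of mesenchyme, *Cnn1*, the calponin of smooth muscle, *Ogn*, a small proteoglycan, *Nexn*, an actin-binding protein, *Itga11*, a collagen receptor, and *Irs1*, an insulin receptor substrate (r = 0.938). All 8 peaked in the WT array of mouse 2, as *Tgfb2* did. *Ogn* had 20.4, 76.4 and 49.4 in WT and 21.8, 23.9 and 24.0 in KO pDCs. For *Tgfb1* only 1 gene reached an r above 0.9, *Sh2d1b1*, an adaptor of NK cell receptors, at 0.906.

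**Figure D3:**
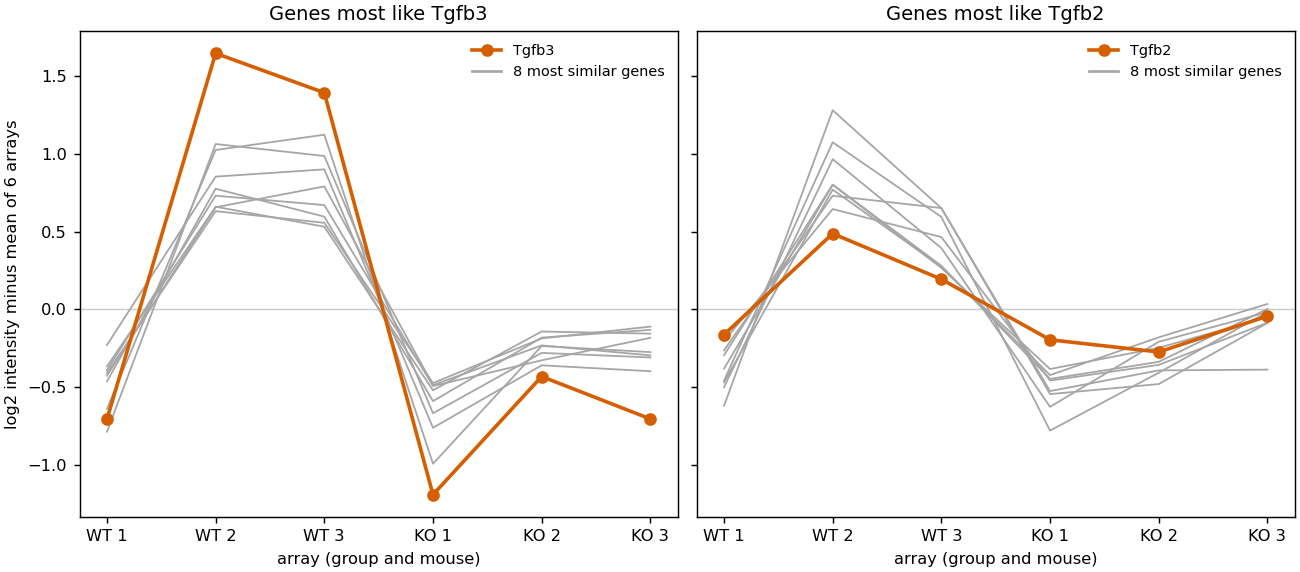
Log2 intensity minus the mean of the 6 arrays (vertical axis) in each array (horizontal axis, group and mouse) for *Tgfb3* and *Tgfb2* (orange) and the 8 genes with the highest Pearson correlation with each (grey). *Tgfb3* and its neighbours are high in the WT arrays of mice 2 and 3, and *Tgfb2* and its neighbours are highest in the WT array of mouse 2.

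Beyond the 10 members, 128 other genes of the superfamily and its pathway were measured, grouped by role. Without the block, 5 were higher and 2 lower in KO pDCs at an unadjusted p under 0.05, 3.91% and 1.56% beside 5.14% and 1.90% of all probe sets. With the mouse as a block 4 were higher and 31 lower, 3.12% and 24.2% beside 7.46% and 5.99%. None passed the adjusted p in either fit of all 6 arrays, and this count turned on mouse 1. Without both its arrays, 13 passed, all lower, beside 0.49% of all probe sets, among them *Inhba*, *Bgn*, *Ccn1*, *Ccn2*, *Lox*, *Acta2* and *Tagln*. Of the 13 all but *Mmp2* are in the study's table of changed genes, so this count is not independent evidence. With the mouse as a block as well, a fit chosen after seeing the data, 22 passed, all lower, beside 1.81%. *Thbs1*, *Dab2*, *Tgfbi* and *Fn1* were among those added. Both of these fits rest on mice 2 and 3 alone. With each array centred on its median, the split at an unadjusted p was 2 higher and 5 lower in place of 5 and 2. Of the 31 lower genes 18 are target genes, which make up 32 of the 128. Of the 128 genes, 16 are in the study's table of changed genes, chosen on these arrays, and 9 are also stromal markers. Among the 110 genes that are neither, 15 were lower with the block, or 13.6%. The 110 still hold *Mmp9*, which is also a neutrophil marker. In the lists that follow, higher or lower with the block means an unadjusted p under 0.05 in the blocked fit of all 6 arrays.

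The ligands of the wider family include activins, BMPs and growth differentiation factors. Of the 28 measured, 1 was higher and 1 lower with the block, and the median log2 difference was 0.09. This is 3.57% each way, beside 7.46% higher and 5.99% lower of all probe sets. The lower one was *Inhba*, the subunit of activin A, with 45.2, 295 and 315 in WT and 47.4, 124 and 114 in KO pDCs of mice 1, 2 and 3. It shared the pattern of *Tgfb3*, high in the WT arrays of mice 2 and 3, but was flat in mouse 1. Its log2 difference was -0.88 (SE 0.81, adjusted p = 0.81 from limma). *Gdf5*, a factor of joint formation, was the higher one, at 0.27 (SE 0.09) and from 29.6 to 38.7 in all arrays, below the dim level. The median log2 difference of the 1208 olfactory and vomeronasal receptor probe sets was itself 0.14.

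Of the 16 other receptors and coreceptors, 0 were higher and 2 (12.5%) lower with the block, beside 7.46% and 5.99% of all probe sets. Both are BMP receptors. *Bmpr2*, the type II receptor, had 371, 467 and 458 in WT and 288, 395 and 342 in KO pDCs, which gave a log2 difference of -0.34 (SE 0.16, adjusted p = 0.71 from limma), with -0.36, -0.24 and -0.42 within the mice. This gene was lower by a like amount in each mouse, mouse 1 included. *Bmpr1a*, a type I receptor, was at -0.50 (SE 0.41), with values from 10.8 to 29.7, below the dim level. Of the 4 other SMAD genes, *Smad9*, which carries BMP signals, was higher in all mice, at 0.35 (SE 0.10), with 59.3 to 61.7 in WT, just below the dim level, and 69.9 to 82.4 in KO pDCs. *Smad4*, the common partner, was at -0.10 (SE 0.10).

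Of the 16 measured genes that store and free the ligands, 1 was higher and 6 lower with the block. These are 6.25% and 37.5%, beside 7.46% and 5.99% of all probe sets. In all 3 mice 7 (43.8%) were lower, beside 17.4%. *Thbs1*, thrombospondin 1, which can activate latent TGF-beta, had 296, 2950 and 3576 in WT pDCs of mice 1, 2 and 3 and 143, 803 and 1412 in KO pDCs. The level of mouse 1 was low in both cultures, yet the KO culture was lower in each mouse, by -1.05, -1.88 and -1.34 on the log2 scale. The mean of -1.42 had an SE of 1.21 without the block (adjusted p = 0.80 from limma) and of 0.16 with it (adjusted p = 0.17). *Itgav*, the integrin subunit that binds latent TGF-beta, was at -0.48 (SE 0.59). *Ltbp2*, a latent TGF-beta binding protein family member, was at -0.33 (SE 0.52). *Mmp9*, a protease that can free the ligand, was at -0.72 (SE 0.92) and is also one of the neutrophil markers. *Furin*, the protease that cleaves the ligand precursors, had 318, 306 and 343 in WT and 246, 230 and 296 in KO pDCs. All its KO values were below all its WT values, as for 4.65% of all probe sets. Its log2 difference was -0.33 (SE 0.12, adjusted p = 0.69 from limma). The higher gene was *Itgb6*, an epithelial integrin subunit, at 0.30 and below the dim level, from 18.0 to 23.5.

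Among the 9 extracellular antagonists 1 was higher and 1 lower with the block, 11.1% each way beside 7.46% and 5.99% of all probe sets. *Bgn*, a matrix proteoglycan that binds TGF-beta, had 44.2, 1824 and 1828 in WT and 48.0, 719 and 724 in KO pDCs, low in both cultures of mouse 1. Its log2 difference was -0.85 (SE 1.76). The BMP antagonist *Sostdc1* was at 0.34 (SE 0.13), with values below the dim level.

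Of the 27 intracellular regulators 0 were higher and 4 (14.8%) lower with the block, beside 7.46% and 5.99% of all probe sets. In all 3 mice 11 (40.7%) were lower, beside 17.4%. *Dab2*, an endocytic adaptor that links the receptors to the SMADs, had 371, 1362 and 1867 in WT and 245, 640 and 983 in KO pDCs. Like *Thbs1* it was lower in each mouse, by -0.60, -1.09 and -0.92, with a mean of -0.87 (SE 0.74, and 0.12 with the block). *Cav1*, the caveolin that takes up receptors, was at -0.95 (SE 0.64). *Smurf2*, a ubiquitin ligase that acts with SMAD7 on the receptors, had 248, 329 and 295 in WT and 219, 226 and 244 in KO pDCs. Its KO values were all below its WT values, as for 4.65% of all probe sets. Its log2 difference was -0.33 (SE 0.13, adjusted p = 0.70 from limma).

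**Figure D4:**
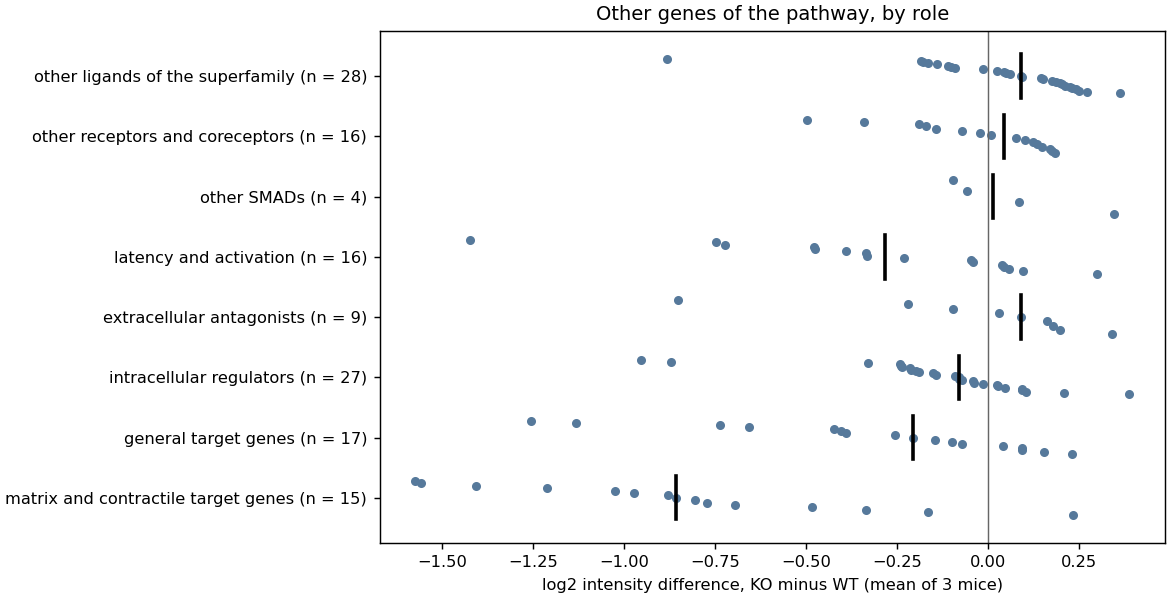
Log2 difference in intensity, KO minus WT (horizontal axis, mean of 3 mice), of each of the other genes of the pathway (points), by role, with the median of each list (black line). The medians lie between -0.28 and 0.09 for all lists but the matrix and contractile target genes, at -0.86.

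Target genes were divided into general targets, which many cell types induce, and matrix and contractile targets. Of the 17 general targets 5 (29.4%) were lower with the block and 0 higher, beside 5.99% and 7.46% of all probe sets. Their median log2 difference was -0.20. *Ccn1*, a matricellular protein, had 69.4, 738 and 596 in WT and 65.1, 210 and 163 in KO pDCs. *Ccn2*, connective tissue growth factor, had 87.8, 512 and 485 in WT and 87.7, 180 and 131 in KO pDCs. Both were as low in the WT culture of mouse 1 as in its KO culture, and their log2 differences of -1.26 (SE 0.96) and -1.13 (SE 0.71) came from mice 2 and 3. *Tgfbi*, a TGF-beta-induced matrix protein, was at -0.74 (SE 0.70) and *Snai2*, a transcription factor of mesenchymal cells, at -0.66 (SE 0.42), and both were lower in all 3 mice. *Id3*, an inhibitor of DNA binding induced by BMPs, was at 1.26 in mouse 1, -0.63 in mouse 2 and 0.06 in mouse 3.

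Of the 15 matrix and contractile targets 13 (86.7%) were lower with the block and 0 higher, beside 5.99% and 7.46% of all probe sets. In all 3 mice 10 (66.7%) were lower, beside 17.4%, and the median log2 difference was -0.86. None passed the adjusted p with all 6 arrays. On mice 2 and 3 alone it was passed by 7 of the 15, all in the study's table of changed genes, beside 0.499% of all probe sets. With the block as well, the fit chosen after seeing the data, 11 passed, beside 2.37%. *Lox*, which crosslinks collagen, had 32.8, 993 and 1599 in WT and 27.2, 221 and 329 in KO pDCs. *Acta2*, an actin of contractile cells, had 91.3, 954 and 660 in WT and 53.3, 242 and 174 in KO pDCs. *Fn1*, fibronectin, was at -1.21 (SE 1.69) and *Tagln*, an actin-binding protein of smooth muscle, at -0.86 (SE 0.54). Within mice 1, 2 and 3 the list had medians of -0.27, -1.29 and -1.39. For 12 of the 15 genes the WT array of mouse 1 lay at least 2-fold below both other WT arrays, beside 4.47% of all probe sets. *Eln*, the elastin gene, was higher in all 3 mice, at 0.24 (SE 0.09), from 62.0 to 79.2.

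Of these 15 genes 10 are in the study's table of changed genes, so the list is not independent evidence of a direction, and 8 are also stromal markers. Of the 7 that are not stromal markers, 6 were lower with the block, beside 5.99% of all probe sets, and the median was -0.69. The stromal markers as a list had medians of -0.02, -1.30 and -1.21 within mice 1, 2 and 3. In all 3 mice 12 of the 19 (63.2%) were lower, beside 17.4% of all probe sets. For 17 of the 19 the WT array of mouse 1 lay at least 2-fold below both other WT arrays, beside 4.47% of all probe sets. Among these, *Col1a1*, a collagen, had 116, 619 and 638 in WT pDCs of mice 1, 2 and 3. *Pdgfrb*, a receptor of mesenchymal cells, had 49.4, 173 and 123. Neutrophil markers had medians of -0.34, -1.25 and -1.23, and macrophage markers -0.41, -0.53 and -0.22. pDC markers had -0.11, 0.40 and 0.71. The part of these other cells in the values of *Tgfb3* and of the target genes was not tested.

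**Figure D5:**
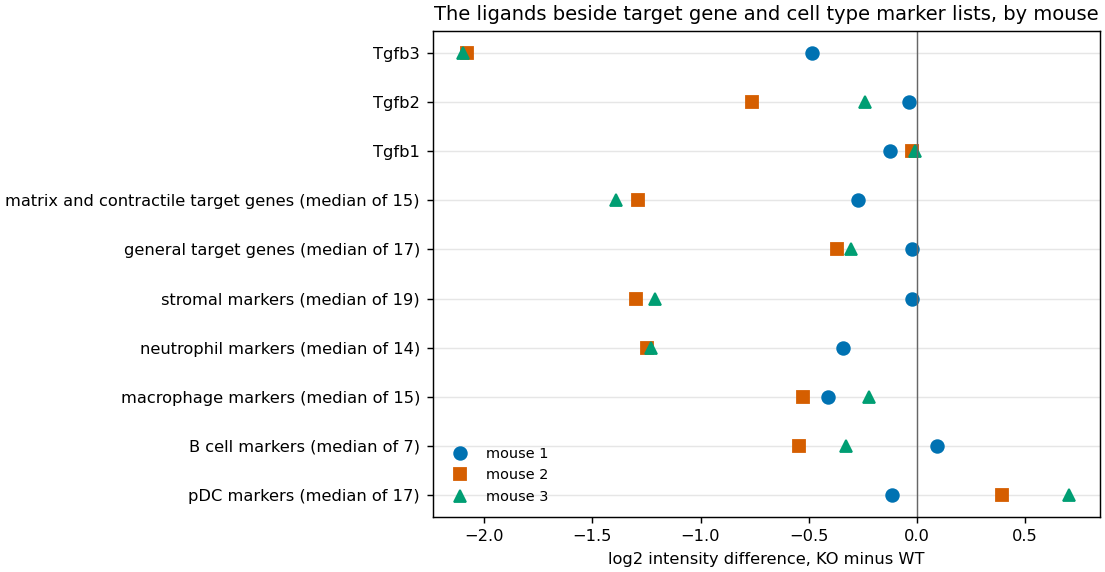
Log2 difference in intensity, KO minus WT (horizontal axis), within mice 1, 2 and 3 for the 3 ligands and for the median of each list of target genes and cell type markers. *Tgfb3*, the matrix and contractile targets and the stromal and neutrophil markers lie below -1 in mice 2 and 3 and nearer 0 in mouse 1, whereas *Tgfb1* lies at -0.12 to -0.01.

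In the untreated cultures alone, several members differed between mouse 1 and the other mice. From mouse 1 to mice 2 and 3 the WT log2 level of *Tgfbr3* was higher by 0.72 and 0.75 and that of *Tgfb2* by 0.65 and 0.36. Those of *Smad7* and *Tgfbr1* were lower, with -0.93 and -0.87 for *Smad7* and -0.30 and -0.91 for *Tgfbr1*. In the KO cultures the gaps were smaller, at 0.76 and 0.49 for *Tgfb3*, 0.14 and -0.06 for *Tgfbr3* and -0.51 and -0.53 for *Smad7*. *Tgfb1* in mice 2 and 3 was within 0.13 of its level in mouse 1 in WT and within 0.05 in KO pDCs. These gaps are single differences between mice, which also differ in *Xist* and *Eif2s3y*, and are given without a test.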

How the data were processed

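The deposited values are linear intensities of 34760 probe sets on 6 Affymetrix Mouse Gene 1.0 ST arrays, each from 200 ng of total RNA, which the authors had normalized between arrays by a method not given in the sources used here. Medians were 69.0 to 72.9. With 3 arrays a group, their number limits the precision, and no read depth applies. Intensities were log2-transformed. The 21640 probe sets paired with exactly 1 symbol were tested, with no filter, KO against WT, in limma 3.58.1 (lmFit, eBayes, R 4.3.3). Tests were two-sided and p-values adjusted by Benjamini and Hochberg over these probe sets, at 0.05. The labels pair arrays by mouse, and after removal of group means, WT and KO arrays of the same mouse correlated best (r = 0.81, 0.51 and 0.67). Alternatives were a fit blocked by mouse, other scalings, low-value rules, probe set choices, array weights, another variance model and arrays or mice left out. The step was tested on simulated data with shifts larger than the difference of any member. That test therefore says nothing about effects of the size reported here.

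A gene with several probe sets was taken at the one with the highest mean. Of the listed genes 12 have no probe set of their own here, 4 of them sharing one. The members and lists were chosen with earlier results of these data known. The text names from all members, the targeted genes, per list up to 3 genes with the smallest p and 3 with the largest difference in the same direction in all mice, list genes in the study's table of changed genes, and the 8 genes most like each ligand. *Id3*, *Ltbp2*, *Mmp2*, *Pdgfrb*, *Xist* and *Eif2s3y* are outside that rule and were named after their values were seen.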

Additional observations from a re-analysis of the deposited data

How the results depend on the processing

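No member other than *Tgfb3* passed the adjusted p under any setting run. The number of members past it was 0 to 1 over fits that left out arrays or mice and 1 with the mouse as a block without mouse 1, a fit chosen after seeing the data. The 1 is *Tgfb3*, which was chosen for this difference, so the count tests nothing. At an unadjusted p under 0.05 the count, 1 as reported, was 0 with a floor at the 20th percentile, 0 without probe sets below the median level, which left 7 members, and 0 with a trended and robust fit. It was 3, *Tgfb3* among them, with array weights and with the block without mouse 1, beside 21.9% and 20.4% of all probe sets. With arrays or mice left out it was 0 to 3, beside 1.53% to 17.6%. The 7 pathway genes of 128 became 35 with the replicate block, 1 with quantile normalization and 12 with the floor. The shares of all probe sets were 13.5%, 4.72% and 8.75%. Without dim probe sets, which left 80 pathway genes, they became 2, beside 4.62%. With array weights they were 42, beside 21.9%, and with the block without mouse 1 48, beside 20.4%. With arrays or mice left out they were 0 to 45, beside 1.53% to 17.6%. The replicate block changed no adjusted call with all 6 arrays, but without mouse 1 it took the pathway genes past the adjusted p from 13 to 22 and all probe sets from 108 to 513.

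Differences near 0 turned over. *Smad7* was at -0.0297 with centred arrays and from -0.15 to 0.33 with arrays or mice left out. Over such fits *Tgfbr1* ran from -0.33 to 0.12, the highest when the WT array of mouse 1 was left out, *Tgfbr2* from -0.20 to 7e-04 and *Smad6* from -7e-04 to 0.29. With the block and no mouse 1, *Tgfbr1* was at 0.0773 and *Tgfbr2* at 7e-04. *Tgfb1*, *Tgfb2*, *Tgfb3*, *Tgfbr3*, *Smad2* and *Smad3* kept their sign throughout, *Tgfb3* from -2.30 to -1.12 and *Tgfb2* from -0.58 to -0.14. The cause of these shifts was not tested.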
